A study of Homo sapiens with 16 samples.

Results

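The sterol and fatty acid synthesis genes are 30 genes of lipid synthesis, listed by symbol and matched by Ensembl identifier among the 57500 genes of the count tables; all 30 were found and passed the filter on low counts in both comparisons. They comprise 4 regulators (SREBF1, SREBF2, SCAP and INSIG1), 17 enzymes of sterol synthesis from HMGCS1 to DHCR7, 2 genes of sterol handling (STARD4 and TMEM97) and 7 enzymes of fatty acid synthesis and desaturation. Gene counts came from 16 RNA sequencing libraries of NCI-H929, an established human multiple myeloma cell line, with 4 libraries in each of 4 groups. Cells were given compound 27, a degrader of the p300 protein, at 3 nM for 6 h, and were set against cells given the vehicle DMSO. In the other experiment cells labelled p300 KO were set against cells labelled NTC, a control that the labels do not spell out further. A degrader is a small molecule that brings its target to the protein breakdown machinery of the cell, and p300, encoded by EP300, is an acetyltransferase that coactivates transcription; its close paralogue CBP is encoded by CREBBP. How the KO was made, whether it is 1 clone or a pool, and whether libraries of 1 group came from separate cultures cannot be read from the labels. The p-values therefore measure only the spread between these libraries, which may be technical.

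Sterols and fatty acids are made from acetyl-CoA, and most of the enzymes are switched on by transcription factors called sterol regulatory element-binding proteins (SREBPs). SREBPs are made as precursors in the membrane of the endoplasmic reticulum. When sterol is scarce, the escort protein SCAP carries them to the Golgi, where they are cut and released to the nucleus, and when sterol is plentiful INSIG proteins hold SCAP back. SREBF2 encodes the form that acts mainly on sterol genes, and SREBF1 encodes the forms that act also or mainly on fatty acid genes. SREBPs work together with the factors NF-Y and SP1, which bind CCAAT and GC-rich boxes, and are known to recruit the coactivators CBP and p300. Plasma cells, from which myeloma arises, carry a large endoplasmic reticulum and need lipid for its membranes.

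Promoter sequence was available for 26 of the 30 genes, from RefSeq on GRCh38.p14, as windows of 250 bases before and 50 bases after a start of the gene. Some genes, such as IDI1 and ACACA, had several starts, and a gene counted as matched where any of its windows matched. The core of the sterol regulatory element, TCACNCCAC, was searched on both strands and was present in 1 of the 26 genes, SREBF2, and in 1.39% of all 27305 genes with a window. CCAAT was present in 20 of the 26 genes, against 39.7% of all genes, and GGGCGG in 25 of the 26, against 48.3%. CACGTG, the E-box, was present in 4 of the 26 (INSIG1, LSS, SC5D and SCAP), against 8.77%. Matches of different motifs were counted each on its own, also where they overlap. CCAAT occurred in 12 of 14 sterol enzymes with a window and in 4 of 6 fatty acid enzymes. A match is a run of letters and not a measured binding site, and a missing match says only that the letters are not in the windows of that gene.

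Parts of 3 of these windows are shown as examples, for genes described below. SREBF2 and MVD were higher in both experiments once 2 libraries were left out, and ELOVL6 moved in opposite directions; bases inside exons of protein-coding genes were trimmed. Capitals mark TCACNCCAC, CCAAT and GGGCGG or their reverse complements, and each stretch reads 5′ to 3′ toward the gene. SREBF2 covers chr22:41832855-41833078 on the plus strand, MVD chr16:88663162-88663341 and ELOVL6 chr4:110198677-110198841, both on the minus strand.
SREBF2: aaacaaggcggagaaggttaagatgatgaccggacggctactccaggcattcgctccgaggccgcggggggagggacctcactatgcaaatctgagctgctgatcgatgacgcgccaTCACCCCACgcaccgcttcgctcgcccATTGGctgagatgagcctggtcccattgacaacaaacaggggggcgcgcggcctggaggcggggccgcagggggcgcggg
MVD: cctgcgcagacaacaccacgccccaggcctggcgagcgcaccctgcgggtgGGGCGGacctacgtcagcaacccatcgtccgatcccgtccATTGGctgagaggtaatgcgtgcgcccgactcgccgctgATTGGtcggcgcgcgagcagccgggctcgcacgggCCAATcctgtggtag
ELOVL6: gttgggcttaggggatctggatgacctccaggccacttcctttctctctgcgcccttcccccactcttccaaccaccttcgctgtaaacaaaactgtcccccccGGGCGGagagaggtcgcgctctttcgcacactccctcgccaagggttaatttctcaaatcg
The SREBF2 stretch holds the only match to the sterol element among the members, 133 bases before the start, with a reversed CCAAT at 106 bases before it. MVD has CCAAT or its reverse at 159, 120 and 85 bases before the start. The ELOVL6 stretch has a GC box at 122 bases before the start, and its whole window has no CCAAT and no sterol element. Starts are those of RefSeq and can differ from the ends of the gene intervals given below. The ELOVL6 and PMVK windows lie inside those intervals. PMVK and TMEM97, which also moved in opposite directions, differed from each other: the PMVK window holds a single GC box, at 119 bases before the start, and the TMEM97 window CCAAT or its reverse at 198, 146 and 85 bases before it, with GC boxes at 222 and 120.

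EP300 itself was measured first, as a check of the labels. It had 50.2, 38.1, 34.0 and 37.4 CPM (counts per 1e6 counts, scaled by TMM within each experiment) in KO libraries 1 to 4, against 100.0, 92.5, 91.0 and 94.6 CPM in NTC libraries 1 to 4. All KO libraries lay below all NTC libraries, with a log2 fold change of -1.25 ± 0.11 (± SE throughout; adjusted p = 2.2e-04). The test is the quasi-likelihood test of edgeR, with Benjamini-Hochberg adjustment over all genes, and a gene is called where its adjusted p is under 0.05. A degrader acts on the protein, so its transcript checks nothing there: EP300 had 49.9, 141, 48.1 and 49.9 CPM with the degrader, against 35.8, 45.3, 43.9 and 41.4 CPM in DMSO. The highest of these values is degrader 2, which stands apart in other ways. CREBBP, measured beside EP300, had 35.6 to 66.6 CPM with the degrader, against 23.9 to 29.4 CPM in DMSO. Without degrader 2 its highest degrader value was 36.8 CPM. In the KO it had 60.5 to 66.1 CPM, against 48.7 to 52.9 CPM in NTC. Its levels were thus higher without overlap in both experiments, and the part of CREBBP in the results was not tested.

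Total counts ran from 12.6 M to 23.1 M per library, where M stands for 1e6 counts. Mitochondrially encoded genes took 64.9% of the counts in degrader 2 and 47.7% in p300 KO 1, and between 5.99% and 23.5% in the other 14 libraries. The other degrader libraries had 5.99%, 6.29% and 6.96%, all below the DMSO libraries, which had 19.7%, 13.4%, 23.5% and 15.5%. In the other experiment the shares were close, with 10.2% to 11.4% in KO libraries 2 to 4 and 8.91% to 10.3% in NTC. Results are therefore given both with all libraries and without degrader 2 or p300 KO 1. The 12 myeloma and plasma cell markers were all detected in every library, at 1.15% to 1.92% of non-mitochondrial counts in sum. Among the markers of other cell types, some, such as CD3D, CD14, LYZ, COL1A2 and EPCAM, stayed at or below 0.435 CPM, while KRT18, CSF1R, NKG7, BACH2, TRAC, GNLY and CD3E reached 14.3, 10.9, 13.9, 19.0, 23.7, 23.9 and 43.9 CPM in their highest library.

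Some of these lists moved with the groups. Of the 12 myeloma and plasma cell markers, 6 were called lower in the KO with all libraries (TNFRSF17, SLAMF7, CD38, IRF4, MZB1 and POU2AF1) and 0 higher. Of all genes, 10.7% were called lower and 6.23% higher in that fit. Without p300 KO 1, 7 markers were lower and 3 higher (SDC1, NSD2 and FGFR3), against 21.8% and 19.1% of all genes. With the degrader and all libraries, IRF4 and POU2AF1 were lower and FGFR3 was higher, against 3.12% and 1.64% of all genes. Without degrader 2, 3 were lower and 4 higher, against 20.3% and 18.2% of all genes. The 6 T and NK cell markers summed to 0.00197% to 0.00336% of non-mitochondrial counts with the degrader, against 0.00524% to 0.00576% in DMSO, and to 0.00655% to 0.00873% in the KO, against 0.00892% to 0.00994% in NTC. The 5 monocyte markers summed to 6.08e-05% to 0.000113% with the degrader, against 0.000142% to 0.000198% in DMSO, and to 0.000523% to 0.000647% in the KO, against 0.000800% to 0.00126% in NTC. Both sums were lower in both experiments without overlap. With all libraries, only CSF1R of the monocyte list and 4 of the 6 T and NK cell markers had enough counts to be tested. Among these 4 markers, 1 estimate was positive in each experiment. The 5 earlier B cell markers overlapped in sum, at 0.00181% to 0.00330% in the KO and 0.00285% to 0.00333% in NTC, but without p300 KO 1 MS4A1, PAX5 and BACH2 were among those called lower in the KO, and 0 were called higher. With the degrader 0 of them were called with all libraries, and without degrader 2 PAX5 was called higher and BACH2 lower. The sum of the 7 fibroblast and epithelial markers was higher in the KO, at 0.00190% to 0.00211%, against 0.00173% to 0.00181% in NTC. It overlapped between degrader and DMSO, as did the sum of the 4 erythroid markers in both experiments. KRT18 weighed most in the sum of the 7, at 4.84 to 14.3 CPM, and KRT8 came next, at up to 2.80 CPM. In the KO with all libraries 0 of the 7 were called, and without p300 KO 1 COL1A1 was higher and PDGFRB lower. The part of these lists in the results was not tested.

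The members spanned a wide range of levels per length. On the scale of CPM per kilobase of exon, PMVK was highest in all 4 groups, at 193 ± 48.7 with the degrader and 133 ± 30.1 in DMSO, and at 142 ± 19.7 in the KO and 209 ± 11.3 in NTC (mean ± SD, n = 4 each). FDPS was second, at 81.5 ± 27.3 with the degrader and 63.3 ± 13.4 in DMSO. ELOVL6, at 0.720 ± 0.315 with the degrader and 0.487 ± 0.0916 in DMSO, and CYP51A1, at 0.800 ± 0.234 and 0.557 ± 0.0796 in those groups, were lowest in that experiment. ELOVL6 stood higher in the other experiment, at 0.943 ± 0.127 in the KO and 1.56 ± 0.122 in NTC. Levels of the 2 experiments come from cells that were not compared directly.

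**Figure D1:**
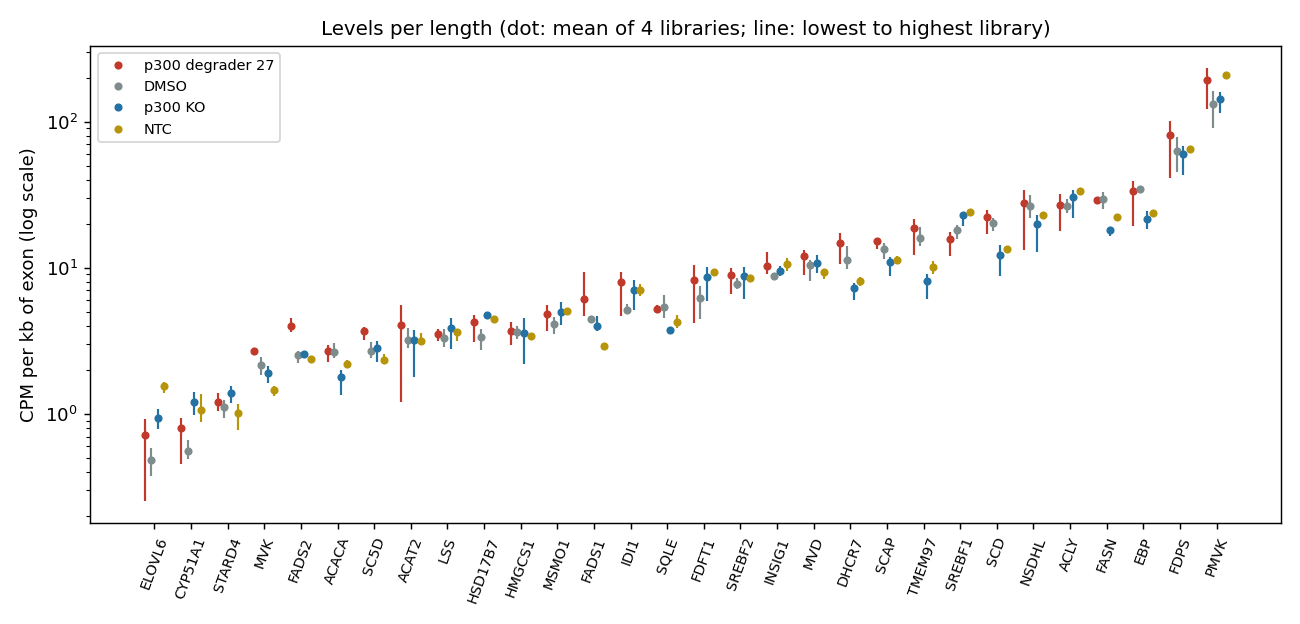
Levels of the 30 genes in CPM per kilobase of exon on a log axis, ordered by the DMSO mean. Dots are means of 4 libraries and lines run from the lowest to the highest library; PMVK is the highest in all groups; ELOVL6 is the lowest with the degrader, in DMSO and in the KO, and STARD4 in NTC.

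After 6 h with the degrader, 1 of the 30 genes, FADS2, passed the test with all 8 libraries, and 0 genes passed in the lower direction. Of all 15872 genes tested, 4.76% were called, 1.64% higher and 3.12% lower. In bulk RNA, a shift in which cells are present and a change of RNA within each cell cannot be told apart. At an unadjusted p under 0.05, 7 members were higher and 0 lower, against 9.65% and 11.1% of all genes. DESeq2 called 3 higher (IDI1, SC5D and FADS2) and 0 lower, against 5% and 6.32% of all genes. The estimate was positive for 27 of 30 members, with a median log2 fold change of 0.24, beside 0.05 over all genes. The sterol enzymes had a median of 0.36 and the fatty acid enzymes of 0.13. FADS2, a desaturase of polyunsaturated fatty acids, had 39.9, 46.6, 37.2 and 36.4 CPM with the degrader, against 24.6, 26.6, 22.6 and 26.6 CPM in DMSO. Every degrader library lay above every DMSO library. By the edgeR test the log2 fold change was 0.67 ± 0.12 (adjusted p = 0.0176). Leaving out DMSO 1, DMSO 3, DMSO 4 or degrader 1 ended this call, with adjusted p up to 0.0634.

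Without degrader 2, 15 of the 30 genes were higher with the degrader and 0 were lower. Over all 16297 genes then tested, 38.5% were called, 18.2% higher and 20.3% lower. The 15 were SREBF2, 11 of 17 sterol enzymes, TMEM97 and 2 of 7 fatty acid enzymes. The median log2 fold change was 0.46 over the sterol enzymes and 0.18 over the fatty acid enzymes, beside -0.04 over all genes. In 18 of 30 members the 3 degrader libraries all lay above the 4 DMSO libraries, which held for 21.9% of all genes, and in 0 they all lay below, against 22.7%. Leaving out any 1 further library gave between 12 and 19 members called higher.

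Of the regulators, SREBF2 had 68.1, 46.5, 67.3 and 62.2 CPM with the degrader, against 52.5, 57.3, 49.8 and 53.7 CPM in DMSO. Degrader 2 lay below all DMSO libraries and the other 3 above them. The log2 fold change without degrader 2 was 0.30 ± 0.08 (SE, adjusted p = 0.0134). SREBF1 had 125, 90.8, 129 and 119.6 CPM with the degrader and 142, 135, 116 and 133 CPM in DMSO, with overlapping groups and -0.09 ± 0.09 without degrader 2 (adjusted p = 0.468). SCAP gave 0.21 ± 0.10 and INSIG1 0.11 ± 0.08 in the same fit, and neither passed the test.

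In the first steps of the mevalonate route, HMGCS1, which makes HMG-CoA, did not pass, at 0.11 ± 0.10 without degrader 2. ACAT2, the cytosolic thiolase that supplies acetoacetyl-CoA, had 21.7, 4.85, 18.8 and 17.9 CPM with the degrader, against 11.03, 14.9, 11.1 and 12.6 CPM in DMSO. Degrader 2 was far below the lowest DMSO value, while the other 3 lay above all DMSO libraries. Its log2 fold change without degrader 2 was 0.63 ± 0.12 (adjusted p = 0.00115). The next kinase, MVK, gave 0.30 ± 0.12 and just missed (adjusted p = 0.0515), although all 4 degrader libraries, at 15.3 to 16.6 CPM, lay above DMSO, at 10.7 to 14.3 CPM.

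PMVK, the phosphomevalonate kinase that follows MVK, had 272, 147, 245 and 235 CPM with the degrader, against 157, 186, 106 and 165 CPM in DMSO. Degrader 2 lay among the DMSO values and the other 3 lay above them, with a log2 fold change of 0.70 ± 0.14 without it (adjusted p = 0.00201). MVD, the decarboxylase that makes isopentenyl diphosphate, had 56.8, 39.5, 54.5 and 56.6 CPM with the degrader, against 47.8, 47.4, 35.2 and 47.4 CPM in DMSO. Here too degrader 2 alone lay within the DMSO range, and the remaining libraries gave 0.32 ± 0.11 (adjusted p = 0.029). IDI1, which interconverts the isoprene building blocks, had 28.4, 15.8, 30.3 and 29.3 CPM with the degrader, against 15.6, 17.2, 15.8 and 18.2 CPM in DMSO. Its 3 other degrader libraries were well above all of DMSO, at 0.80 ± 0.09 (adjusted p = 1.91e-05), the smallest p of the 30 members. FDPS, which makes farnesyl diphosphate, had 342, 144, 318 and 298 CPM with the degrader, against 213, 260.0, 155 and 223 CPM in DMSO, and gave 0.57 ± 0.14 without degrader 2 (adjusted p = 0.00452). Degrader 2 was again the lowest of the 8 libraries and the other 3 the highest.

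Among enzymes committed to sterols, FDFT1, the squalene synthase, was higher without degrader 2 at 0.62 ± 0.14 (adjusted p = 0.00292). SQLE, the squalene epoxidase, and LSS, the cyclase that makes lanosterol, did not pass, at -0.04 ± 0.11 and 0.08 ± 0.11. Of the enzymes that turn lanosterol into cholesterol, CYP51A1 (0.70 ± 0.18), SC5D (0.51 ± 0.10), DHCR7 (0.50 ± 0.12), HSD17B7 (0.46 ± 0.11) and NSDHL (0.29 ± 0.11) were higher, with adjusted p from 0.00175 for SC5D to 0.0479 for NSDHL. MSMO1 and EBP did not pass. SC5D, which introduces a ring double bond late in the route, had 19.5, 16.6, 18.9 and 19.9 CPM with the degrader, against 12.1, 13.03, 13.5 and 15.7 CPM in DMSO. It and MVK were the only sterol enzymes in which all 4 degrader libraries lay above all 4 of DMSO, which held for 7.6% of all genes. In 0 members did all degrader libraries lie below DMSO, against 9.24% of all genes.

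TMEM97, a sterol-responsive protein of the endoplasmic reticulum, had 59.0, 34.8, 56.8 and 54.7 CPM with the degrader, against 39.0, 51.6, 39.0 and 44.6 CPM in DMSO. Degrader 2 was the lowest of the 8 and the other 3 the highest, and without it the log2 fold change was 0.37 ± 0.10 (adjusted p = 0.0112). STARD4, which moves sterol between membranes, overlapped between groups and gave 0.03 ± 0.14.

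The central enzymes of fatty acid synthesis were not called with the degrader. Without degrader 2, ACLY, which makes cytosolic acetyl-CoA from citrate, gave 0.18 ± 0.09, ACACA, the acetyl-CoA carboxylase, 0.09 ± 0.09, and FASN, the fatty acid synthase, -0.02 ± 0.09 with a 95% interval from -0.22 to 0.18. SCD, the stearoyl-CoA desaturase, gave 0.22 ± 0.09 (adjusted p = 0.0716). ELOVL6, which lengthens saturated and monounsaturated fatty acids, had 5.96, 1.73, 5.32 and 6.09 CPM with the degrader, against 2.49, 3.84, 3.02 and 3.52 CPM in DMSO. Degrader 2 was the lowest of the 8 libraries and the other 3 were the highest, with 0.83 ± 0.16 without it (adjusted p = 0.00146). FADS1, the partner desaturase of FADS2, had 43.7, 89.6, 47.2 and 49.0 CPM with the degrader, against 39.0, 40.9, 43.5 and 43.1 CPM in DMSO. All degrader libraries lay above DMSO, degrader 2 far above, and the test was not passed with it (0.46 ± 0.22, adjusted p = 0.293) or without it (0.16 ± 0.08, adjusted p = 0.149). FADS1 and FADS2 share 490 bases of exon on opposite strands, and the use of strand in counting is not stated.

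With all 8 libraries, degrader 2 included, the estimates had larger standard errors. Among the genes called without it, SREBF2 gave 0.20 ± 0.14, ACAT2 0.38 ± 0.36, PMVK 0.55 ± 0.23, MVD 0.23 ± 0.16, IDI1 0.65 ± 0.19 and FDPS 0.37 ± 0.27. FDFT1 gave 0.43 ± 0.27, CYP51A1 0.57 ± 0.24, NSDHL 0.08 ± 0.26, HSD17B7 0.36 ± 0.16, SC5D 0.47 ± 0.12, DHCR7 0.39 ± 0.18, TMEM97 0.24 ± 0.18 and ELOVL6 0.61 ± 0.33. None of these 14 passed, and the smallest adjusted p among them was 0.0621, for SC5D; FADS2, called with all libraries, gave 0.58 ± 0.09 without degrader 2 (adjusted p = 2.87e-04). Of genes called in neither fit, all libraries gave SREBF1 -0.18 ± 0.14, SCAP 0.18 ± 0.12, INSIG1 0.25 ± 0.14, HMGCS1 0.05 ± 0.13, MVK 0.33 ± 0.13, SQLE -0.04 ± 0.13 and LSS 0.11 ± 0.12. STARD4 gave 0.12 ± 0.16, ACLY 0.04 ± 0.18, ACACA 0.04 ± 0.12, FASN 0.01 ± 0.12 and SCD 0.13 ± 0.14. MSMO1 gave 0.24 ± 0.16 with all libraries and 0.32 ± 0.12 without degrader 2, and EBP -0.04 ± 0.20 and 0.14 ± 0.08.

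**Figure D2:**
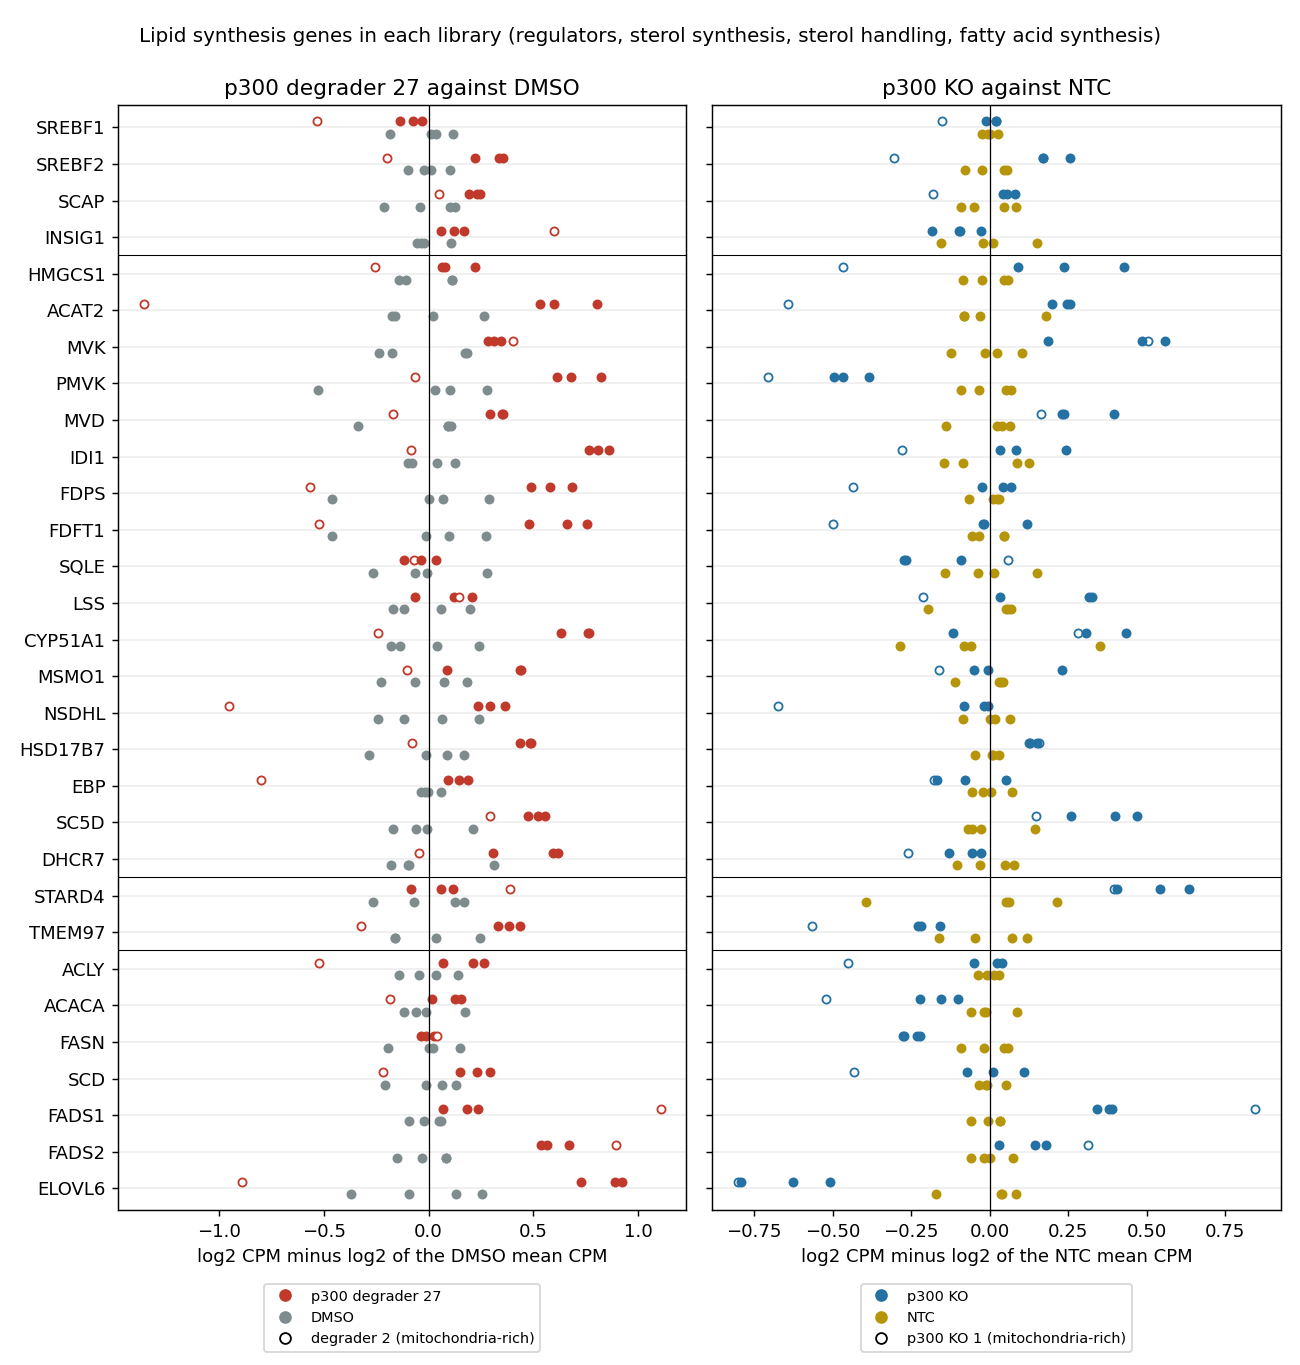
Each library's level of the 30 genes as log2 CPM minus log2 of the mean CPM of DMSO (left panel) or NTC (right panel); open circles are degrader 2 and p300 KO 1, and horizontal lines part regulators, sterol enzymes, sterol handling and fatty acid enzymes. Most filled degrader points of the sterol enzymes lie right of 0, while degrader 2 is the lowest degrader library for 14 of the 17, and KO points lie on both sides.

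In the degrader experiment, libraries with a higher mitochondrial share had a lower sterol sum. Summed over the 17 genes, they took 0.137%, 0.0775%, 0.130% and 0.125% of non-mitochondrial counts in degrader libraries 1 to 4, against 0.0974%, 0.112%, 0.0815% and 0.102% in DMSO libraries 1 to 4. DMSO 2, with the lowest mitochondrial share of its group, was the highest DMSO library for 14 of the 30 members and DMSO 3, with the highest share, the lowest for 17; over all genes tested these were 26.0% and 30.7%. Degrader 2 was the lowest degrader library for 22 of the 30, against 43.4% of all genes. The fatty acid sum was 0.0803%, 0.0776%, 0.0781% and 0.0764% with the degrader and 0.0766%, 0.0775%, 0.0721% and 0.0772% in DMSO, with overlap. Without degrader 2, the mitochondrial shares of the degrader and DMSO libraries do not overlap, so the treatment and that share cannot be told apart. A fit on all 8 libraries with the mitochondrial share as a covariate, added after the data were seen, called 8 members higher (INSIG1, MVK, PMVK, IDI1, SC5D, DHCR7, FADS1 and FADS2) and 1 lower (SREBF1); in that fit 5663 of 15872 genes were called.

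**Figure D3:**
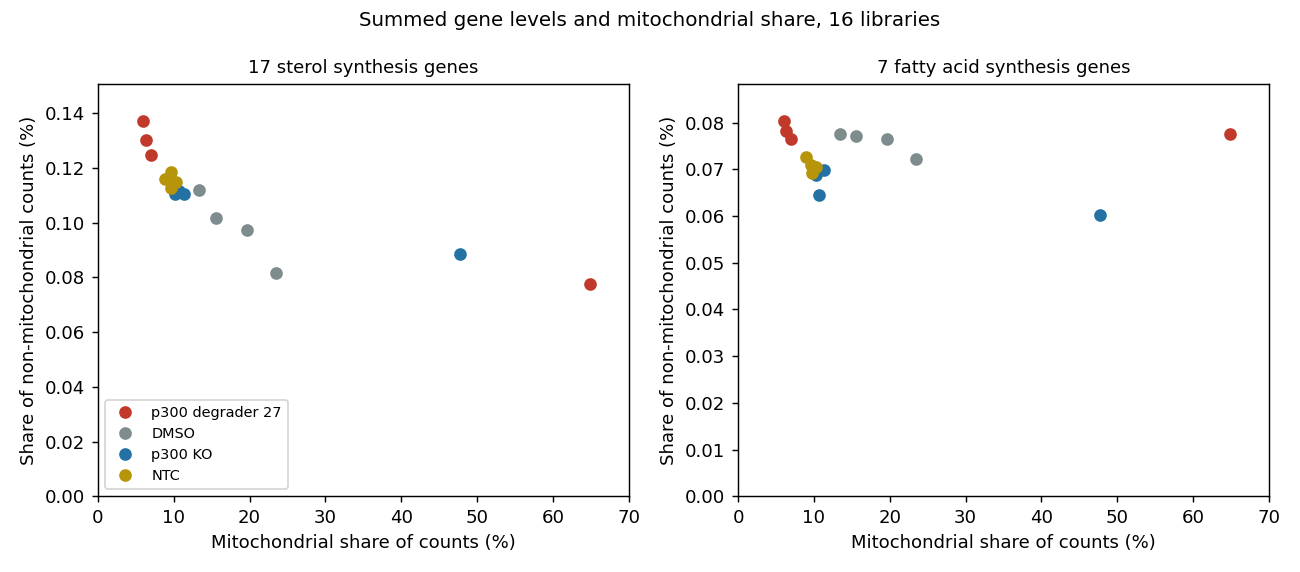
Summed share of non-mitochondrial counts taken by the 17 sterol enzymes (left) and the 7 fatty acid enzymes (right) against the mitochondrial share of all counts, 1 dot per library. The sterol sum is highest, at 0.125% to 0.137%, in the 3 degrader libraries with the lowest mitochondrial share and lowest, at 0.0775%, in degrader 2.

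In the KO, members moved both ways. With all 8 libraries, 5 of 30 were higher (MVK, MVD, SC5D, STARD4 and FADS1) and 3 were lower (PMVK, FASN and ELOVL6); of all 17350 genes tested, 17% were called, 6.23% higher and 10.7% lower. The median log2 fold change was 0.04 over the sterol enzymes and -0.10 over the fatty acid enzymes, beside 0.02 over all genes. Without p300 KO 1, 9 were higher and 6 lower, while 40.9% of all 17706 genes were called, 19.1% higher and 21.8% lower. The KO libraries 2 to 4 lay above all NTC libraries in 9 members and below them in 5, against 19.8% and 22.2% of all genes. SREBF2, HMGCS1, ACAT2 and LSS joined the higher genes and SQLE, TMEM97 and ACACA the lower ones. The counts without p300 KO 1 thus stood near the background, and what follows describes single genes.

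PMVK had 178, 209.5, 222 and 205 CPM in KO libraries 1 to 4, against 300.5, 272, 283 and 304 CPM in NTC libraries 1 to 4. On GRCh38 the gene lies at chr1:154924734-154936991 on the minus strand. All KO libraries lay below all NTC libraries, at -0.51 ± 0.08 on the log2 scale (adjusted p = 0.00392) and -0.45 ± 0.05 without p300 KO 1 (adjusted p = 7.18e-10). ELOVL6 (chr4:110045846-110199199, minus strand) had 7.07, 8.67, 7.12 and 7.99 CPM in the KO, against 13.1, 12.6, 10.96 and 12.7 CPM in NTC. The groups did not overlap, at -0.67 ± 0.10 (adjusted p = 0.00263) and -0.64 ± 0.10 without p300 KO 1 (adjusted p = 8.05e-07). These 2 calls held when any 1 of the 8 libraries was left out. FASN had 187, 193, 187 and 194 CPM in the KO, against 233, 212, 223 and 236 CPM in NTC, again without overlap. It fell by a small amount, at -0.25 ± 0.06 (adjusted p = 0.026), and ACACA, the enzyme before it, was lower without p300 KO 1 at -0.16 ± 0.06 (adjusted p = 0.0423). All 4 KO libraries lay below NTC in 4 members, against 16.1% of all genes.

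Of the genes that rose in the KO, FADS1 had 58.2, 41.1, 42.2 and 42.5 CPM, against 32.3, 31.1, 33.2 and 33.2 CPM in NTC. All KO libraries were above NTC and p300 KO 1 was the highest, with 0.50 ± 0.11 (adjusted p = 0.0165) and 0.37 ± 0.06 without that library (adjusted p = 2.07e-06). MVK had 14.4, 11.6, 15.0 and 14.3 CPM in the KO, against 10.1, 10.3, 9.34 and 10.9 CPM in NTC, a log2 fold change of 0.44 ± 0.10 (adjusted p = 0.0181). STARD4 had 8.24, 9.11, 8.29 and 9.71 CPM in the KO, against 6.53, 7.26, 6.49 and 4.77 CPM in NTC. Its groups did not overlap and its log2 fold change was 0.50 ± 0.14 (adjusted p = 0.033). MVD, with 53.2 to 62.6 CPM in the KO and 43.2 to 49.8 CPM in NTC, gave 0.26 ± 0.08 (adjusted p = 0.0454). SC5D had 15.5, 16.7, 18.5 and 19.4 CPM in the KO, against 13.5, 15.5, 13.3 and 13.7 CPM in NTC, and gave 0.33 ± 0.09 (adjusted p = 0.0378); KO 1 and NTC 2 were nearly equal. In 6 members all KO libraries lay above NTC, against 12.5% of all genes. HSD17B7 was among them but was not called, at 21.9 to 22.4 CPM in the KO and 19.4 to 20.5 CPM in NTC. FADS2, also not called, had means of 31.9 CPM in the KO and 28.4 CPM in NTC, with overlapping libraries. The means of HSD17B7 and FADS2 were also higher with the degrader than in DMSO.

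Without p300 KO 1 these log2 fold changes were 0.42 ± 0.09 for MVK, 0.53 ± 0.11 for STARD4, 0.29 ± 0.06 for MVD, 0.38 ± 0.08 for SC5D and -0.24 ± 0.05 for FASN, with adjusted p from 8.55e-05 for FASN to 3.19e-04 for MVK. The genes called only without p300 KO 1 gave, with all libraries, 0.09 ± 0.11 for SREBF2, 0.12 ± 0.16 for HMGCS1, 0.08 ± 0.17 for ACAT2, 0.14 ± 0.12 for LSS, -0.14 ± 0.10 for SQLE, -0.28 ± 0.10 for TMEM97 and -0.24 ± 0.09 for ACACA.

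The calls of MVD, SC5D, STARD4, FASN, MVK and FADS1 were each ended by leaving out single libraries, with adjusted p up to 0.133. MVD and SC5D were called in 1 of the 8 leave-outs, the one without p300 KO 1, STARD4 and FASN in 2, and MVK and FADS1 in 5, with losses without NTC 1 for all 6 genes.

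SREBF2 had 56.7, 78.8, 78.8 and 83.7 CPM in the KO, against 72.7, 72.2, 66.3 and 68.9 CPM in NTC. KO 1 lay below all NTC libraries and the other 3 above them, with 0.20 ± 0.05 without it (adjusted p = 0.00233). HMGCS1 (0.26 ± 0.08), ACAT2 (0.23 ± 0.08) and LSS (0.23 ± 0.07) were likewise higher only in the fits without p300 KO 1 or with the mitochondrial share as a covariate, among those listed under the processing. SREBF1, SCAP and INSIG1 were not called, with log2 fold changes from -0.10 to 0.06 without p300 KO 1. TMEM97 and SQLE were lower in that fit, at -0.20 ± 0.07 (adjusted p = 0.0122) and -0.21 ± 0.08 (adjusted p = 0.026). Some sterol enzymes passed in neither fit: without p300 KO 1, IDI1 gave 0.12 ± 0.07, FDPS 0.03 ± 0.05, FDFT1 0.03 ± 0.06, NSDHL -0.04 ± 0.06 and DHCR7 -0.07 ± 0.06. The 95% interval for FDPS ran from -0.07 to 0.12.

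The sterol sum was 0.0885%, 0.110%, 0.112% and 0.110% of non-mitochondrial counts in KO libraries 1 to 4, against 0.116%, 0.113%, 0.115% and 0.118% in NTC. All KO libraries lay below NTC, by a small margin in libraries 2 to 4. Without p300 KO 1, however, 6 sterol enzymes were called higher and 2 lower. The sum is weighted toward the genes with most counts, PMVK and FDPS. PMVK had a mean of 290 CPM in NTC and 212 CPM in KO libraries 2 to 4, and FDPS 263 and 269 CPM. A sum without PMVK was not tested. The library p300 KO 1 was the lowest KO library for 22 of the 30 members, against 40.2% of all genes. With the mitochondrial share as a covariate, 9 members were called higher and 5 lower, in a fit that called 7008 of 17350 genes.

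**Figure D4:**
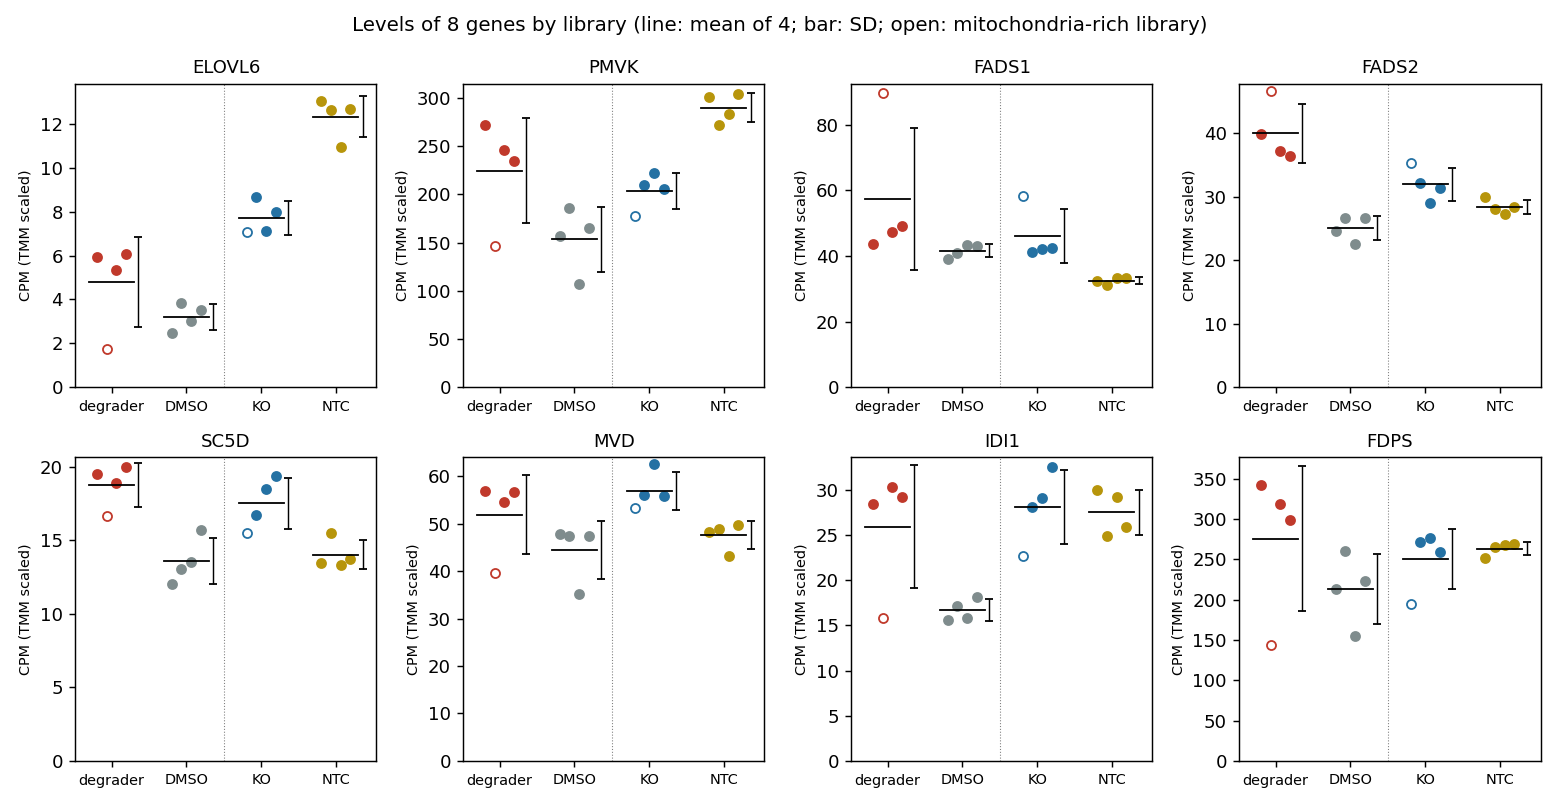
CPM of 8 genes in every library by group, with the mean of 4 as a line and the SD as a bar; open circles are degrader 2 and p300 KO 1. ELOVL6 and PMVK are lower in all KO than in all NTC libraries, while their filled degrader circles are above all DMSO circles.

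The effects of the degrader and of the KO were compared directly as the KO effect minus the degrader effect, in a fit on all 16 libraries. With all libraries the difference was negative and called for 3 members, PMVK (-1.10 ± 0.27, adjusted p = 0.0233), FADS2 (-0.54 ± 0.13, adjusted p = 0.019) and ELOVL6 (-1.35 ± 0.34, adjusted p = 0.0243), and positive and called for 0. Of all 18068 genes tested, 6.58% were called, 3.76% negative and 2.82% positive. At an unadjusted p under 0.05, 8 members were negative and 0 positive, against 11.5% and 9.32% of all genes. DESeq2 called 4 negative (PMVK, FASN, FADS2 and ELOVL6) and 0 positive, against 7.21% and 4.38% of all genes. With total count scaling or the replicate block 0 members were called, so all 3 lost their call there. FADS2 was called in all 16 fits that left out 1 library, and was not called without a filter on low counts. PMVK lost its call without degrader 1, degrader 3, NTC 1 or NTC 4, with adjusted p up to 0.059. ELOVL6 was called in 7 of the 16, and lost it without DMSO 1, DMSO 3, degrader 1, 3 or 4, NTC 1, 2 or 4, or KO 3, with adjusted p up to 0.0612.

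Without degrader 2 and p300 KO 1, the difference was called negative for 11 members and positive for 0, against 16.7% and 15.3% of all 18432 genes (32% in either direction). Besides PMVK (-1.17 ± 0.17), FADS2 (-0.49 ± 0.11) and ELOVL6 (-1.49 ± 0.18), these were IDI1 (-0.71 ± 0.12), FDFT1 (-0.62 ± 0.16), TMEM97 (-0.60 ± 0.13), DHCR7 (-0.60 ± 0.14), FDPS (-0.57 ± 0.16), ACAT2 (-0.43 ± 0.15), HSD17B7 (-0.35 ± 0.13) and NSDHL (-0.35 ± 0.13). SREBF2 (-0.12 ± 0.10), MVD (-0.06 ± 0.13), SC5D (-0.16 ± 0.13) and MVK (0.09 ± 0.15) did not pass, and their 95% intervals ran from -0.33 to 0.08, from -0.33 to 0.22, from -0.43 to 0.11 and from -0.23 to 0.40. The experiments share no libraries, the time since the KO was made is not stated, and mitochondrial shares differ more between degrader and DMSO than between KO and NTC. With the mitochondrial share as a covariate, 6 members were called negative (INSIG1, PMVK, IDI1, DHCR7, FADS2 and ELOVL6) and 1 positive (SREBF1). That fit called 4546 of 18068 genes, 49.4% of them positive.

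Set side by side without the 2 libraries, 4 members were called higher in both experiments (SREBF2, ACAT2, MVD and SC5D) and 3 were higher with the degrader and lower in the KO (PMVK, TMEM97 and ELOVL6). Another 8 were called with the degrader but not in the KO (IDI1, FDPS, FDFT1, CYP51A1, NSDHL, HSD17B7, DHCR7 and FADS2), and for 7 of these the difference itself was called, CYP51A1 being the exception. HMGCS1, MVK, LSS, STARD4 and FADS1 were called higher, and SQLE, ACACA and FASN lower, in the KO but not with the degrader, and for 0 of these 8 was the difference called. SREBF1, SCAP, INSIG1, MSMO1, EBP, ACLY and SCD were called in neither. Taken singly, 18.2% of all genes were called higher with the degrader, and 19.1% higher and 21.8% lower in the KO. The shares of all genes with each pair of calls were not computed. The counts of shared and opposite calls therefore have no background beside them and are not read as a result about the members.

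**Figure D5:**
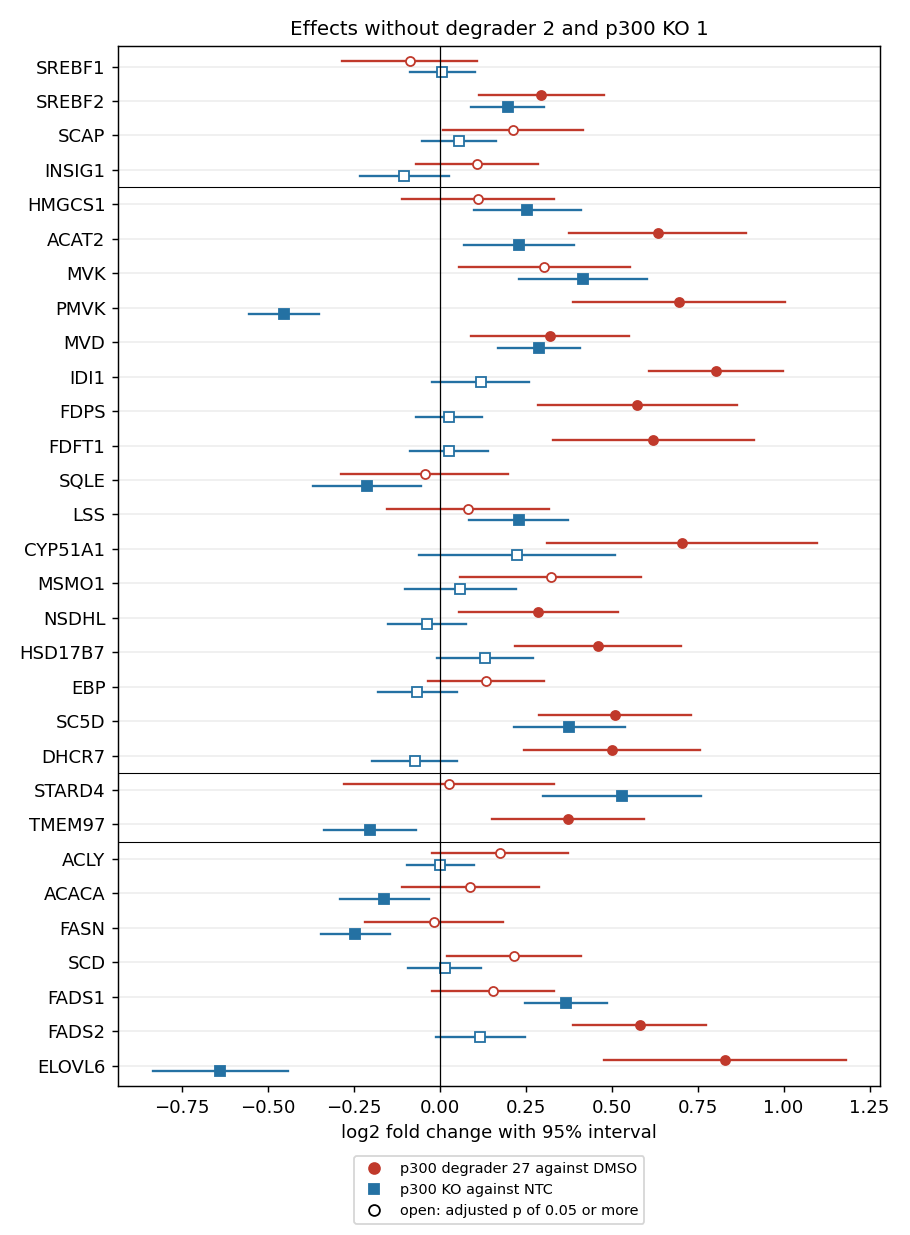
Log2 fold changes with 95% intervals of the 30 genes without degrader 2 and p300 KO 1, degrader against DMSO as circles and KO against NTC as squares; filled symbols have an adjusted p under 0.05. IDI1, FDPS, FDFT1 and DHCR7 lie right of 0 with the degrader and near 0 in the KO, and PMVK and ELOVL6 lie on opposite sides.

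Some members share exon bases with neighbours, which makes their counts uncertain because neither strand use nor the handling of multiply mapping reads is stated. CYP51A1 shares 78.8% of its exon bases with LRRD1 on the same strand, so its value rests on the remaining exons or on reads given to both. On the opposite strand, ACAT2 shares 43.0% with the gene ENSG00000112096, FDPS 18.6% with RUSC1-AS1, IDI1 17.9% with IDI2-AS1 and TMEM97 11.9% with IFT20. PMVK, MVD, SC5D, DHCR7 and ELOVL6 shared no exon bases with another annotated gene. FDPS and HSD17B7 have near-identical pseudogene copies in the genome.

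Genes of the surrounding lipid pathways were taken from 6 lists with 89 genes. With the degrader and all libraries, 2 of them were called, both lower: CHKA, a choline kinase of phospholipid synthesis (-0.54 ± 0.12, adjusted p = 0.0401), and ABCA1, the sterol efflux pump (-0.62 ± 0.13, adjusted p = 0.0316). Over all genes tested, that fit called 1.64% higher and 3.12% lower, and the KO fit with all libraries 6.23% and 10.7%. The lists were not tested as sets, and what follows describes single genes. In the KO with all libraries, PAQR3, a Golgi anchor of the SCAP complex, was higher at 0.66 ± 0.14 (adjusted p = 0.0142) among 12 genes of SREBP processing, with 0 lower. Of 16 genes of fatty acid oxidation, PPARA, a transcription factor that drives oxidation genes (0.82 ± 0.17), and ACADVL, a mitochondrial acyl-CoA dehydrogenase (0.25 ± 0.07), were among those called higher, and 0 were lower. Of 16 other genes of fatty acid supply and elongation, ACSS2, an acetyl-CoA synthetase (0.48 ± 0.12), and HACD2, an elongation-cycle dehydratase (0.28 ± 0.08), were higher, and MID1IP1, an activator of acetyl-CoA carboxylase, was lower (-0.68 ± 0.18). RABGGTB, AGPAT5 and SCARB1 were lower in the KO, each the single call of its list of 12, 17 and 16 genes, at -0.25 ± 0.06, -0.41 ± 0.09 and -0.30 ± 0.08.

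Without degrader 2, where 18.2% of all genes were called higher and 20.3% lower, the lists gave 6 of 17 higher and 3 lower in glycerolipid assembly and 6 of 16 higher and 2 lower in other fatty acid supply. LPIN1, a phosphatidate phosphatase, was lower with the degrader at -1.20 ± 0.11 (adjusted p = 2.16e-06), and DGAT2, which makes triglyceride, was higher at 0.77 ± 0.13 (adjusted p = 6.21e-04). In the sterol transport list, LIPA, the lysosomal lipase that frees cholesterol, and NPC1, which exports it from lysosomes, were higher (0.90 ± 0.12 and 0.24 ± 0.09). ABCA1 (-0.67 ± 0.12) and MYLIP, a ligase that degrades lipoprotein receptors (-0.84 ± 0.13), were lower. In SREBP processing ERLIN1, ERLIN2, SEC23A and PAQR3 were among the genes called higher and RNF145 was lower (-0.41 ± 0.09). CPT1A, the gatekeeper of mitochondrial fatty acid uptake, was lower at -0.61 ± 0.09 (adjusted p = 1.17e-04), while 5 of 16 oxidation genes were higher, among them HADH (0.50 ± 0.09) and ECI1 (0.47 ± 0.08).

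Without p300 KO 1, LPIN1 (-0.43 ± 0.05, adjusted p = 1.3e-09) and PAQR3 (0.75 ± 0.10, adjusted p = 1.13e-07) had the smallest p of these lists beside MID1IP1 (-0.52 ± 0.07). ABCA1 was higher in the KO in that fit, at 0.29 ± 0.06 (adjusted p = 8.46e-05), and the difference between the experiments was called for it already with all libraries, at 0.82 on the log2 scale. PGGT1B, a subunit of a protein prenyltransferase, was higher (0.37 ± 0.07).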

How the data were processed

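Counts of reads per gene were deposited for 16 libraries; per the submitters' processing notes, the authors used Trimmomatic 0.36, STAR 2.5.2b, featureCounts of Subread 1.5.2, DESeq2 1.16.1 and GRCh38. Per the labels' protocols, a QIAsymphony extracted the RNA and a NEBNext Ultra II kit gave the libraries. Groups were taken from the labels, which put all libraries in batch 1. Of 57500 gene identifiers, 40907 had a symbol. The members, the other lists and the rule that every member is named were chosen with earlier results of these data known. Counts were filtered with filterByExpr, scaled by TMM and tested with edgeR 4.0.16's quasi-likelihood test (R 4.3.3), in 1 fit per experiment and 1 fit of all 16 libraries for the difference; p was adjusted over all genes tested, and the scripts were tested on simulated data. CPM is counts per 1e6 counts scaled by TMM, and intervals cover the spread between libraries. The alternatives were DESeq2 1.42.0 (Wald test, and its size factors), total count scaling, mitochondrial genes removed before scaling, no filter, a replicate block and leaving out libraries. Fits with the logit of the mitochondrial share as a covariate, and those that combine leaving out a mitochondria-rich library with another change, were added after the data were seen. With 16 libraries of 12.6 M to 23.1 M counts, low genes such as ELOVL6, with 10 counts in degrader 2, carry the most counting error; degrader 2 held 4.42 M non-mitochondrial counts. Results for some genes of the other lists are not reported here.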

Additional observations from a re-analysis of the deposited data

Results flagged for a closer look

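Among 120 sets of 4 libraries (30 genes in 4 groups), 14 had 1 library far from the other 3 by Dixon's test, which chance does in about 1 of 20 sets. Degrader 2 was the library in 6 of them: it was lowest for MVD (39.5 CPM), IDI1 (15.8 CPM), NSDHL (24.6 CPM), HSD17B7 (11.96 CPM) and EBP (43.5 CPM) and highest for FADS1 (89.6 CPM). The library p300 KO 1 was the one in 4: it was lowest for SCAP (68.0 CPM), ACAT2 (9.40 CPM) and NSDHL (31.3 CPM) and highest for FADS1 (58.2 CPM). FADS1 was thus the gene in which both mitochondria-rich libraries stood far above their groups, while the sterol enzymes named here stood below. The other 4 were MVD in DMSO 3 (35.2 CPM, lowest), DHCR7 in DMSO 2 (52.7 CPM, highest), LSS in NTC 3 (24.9 CPM, lowest) and MSMO1 in NTC 4 (14.8 CPM, lowest). The part of the mitochondrial share in these values was not tested.

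The KO effect less the degrader effect was called in the test of the difference for PMVK (-1.10 on the log2 scale), FADS2 (-0.54) and ELOVL6 (-1.35). For PMVK and ELOVL6 all 4 KO libraries lay below all 4 NTC libraries, and for FADS2 all 4 degrader libraries lay above all 4 DMSO libraries.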

How the results depend on the processing

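With the degrader and all libraries, 1 member was called higher and 0 lower. The count higher was 3 with DESeq2, 0 with total count scaling, 0 with the replicate block and 8 with the mitochondrial share as a covariate, which also called 1 lower. It ran from 0 to 19 over fits that left out 1 library, alone or beside degrader 2 (0 lower throughout). It was 15 without degrader 2, and 0 without DMSO 1, 3, 4 or degrader 1. Without degrader 2 it was 16 with DESeq2, where 5984 of 16297 genes were called, 50.7% of them higher. With total count scaling instead it was 22, where 6683 genes were called, 63.1% of them higher. The median of all genes was then 0.08, against -0.04 with TMM. In that total count fit EBP turned to 0.25, against -0.04 with all libraries. EBP was also positive without degrader 2 under TMM, and the cause was not tested. In the KO, 5 were higher and 3 lower. Total count scaling gave 0 and 1 with a sterol median of -0.10, no filter 1 higher, the block 1 higher and the covariate 9 and 5. Leave-outs ran from 0 (without NTC 1) to 10 higher, with 1 without NTC 2, 3 or 4 and 2 without KO 2, 3 or 4. They ran from 2 to 6 lower, with 9 higher and 6 lower without p300 KO 1. Without that library DESeq2 gave 9 higher and total count scaling 9 and 6, in fits that called 6319 and 7124 of 17706 genes. Sterol medians over leave-outs ran from 0.28 to 0.48 with the degrader and from -0.04 to 0.14 in the KO. For the difference, 3 were negative with all libraries, 0 with total count scaling, 1 with no filter, 0 with the block, 6 with the covariate (and 1 positive), and from 1 (without degrader 1 or 3, or NTC 1 or 4) to 11 in leave-outs, with 9 without degrader 2 and 11 without both libraries and 0 positive. Total count scaling moved the median of all genes to -0.09, against 0.05, with the degrader, and to -0.14, against 0.02, in the KO; 11.6% and 4.82% of calls were then higher, against 34.4% and 36.7%. With the block those shares were 16.7% and 26.3%. Deviations of same-numbered libraries had correlations of -0.003, -0.57, -0.59 and 0.34 with the degrader, and of -0.26, 0.08, -0.27 and -0.07 in the KO. Differently numbered libraries also correlated, for example degrader 1 at 0.64 with DMSO 2 and at -0.66 with DMSO 3. With 4 libraries per group, these values cannot decide whether the numbers pair the libraries. The block called 24 genes with the degrader, against 755 without it, and 1304 in the KO, against 2944. Low depth in degrader 2 limits its low genes.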
